A study of Mus musculus with 12 samples.

Results

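The genes described here drive DNA replication and mitosis, and they were followed across 4 genotypes of mouse gonadal white fat. The list held 45 genes, of which 31 act in mitosis and 14 act in or before DNA replication, out of 20871 genes that could be named on the array. Members were found on the array through the RefSeq accession that each probe carries, and each gene was read from its brightest probe. In all, 40 members could be tested, 28 of mitosis and 12 of replication, because 3 or more of the 12 arrays read their probe well above background. Of these, 39 were above background on every array and Kif4 on 11, and no member was saturated. The kinase Aurkb, the kinetochore protein Cenpf and the cyclin Ccne2 were above background on 0 arrays, the checkpoint kinase Ttk on 2, and the thymidine kinase Tk1 had no named probe.

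The fat came from male C57BL/6N mice aged 59 to 67 days. Wild-type animals (WT), Gadd45a-/- animals (Gadd45a-KO), Ing1-/- animals (Ing1-KO) and Gadd45a-/-;Ing1-/- animals (DKO) were bred from crosses of the 2 mutant lines. RNA was pooled from 3 animals per array, so that 9 animals per genotype gave 3 one-colour arrays, and the spread between arrays is the spread between pools. Which cells lose the genes is not limited by a promoter or Cre in the labels, and the tissue was whole fat. Gadd45a is a small stress-induced protein that binds cell cycle regulators such as PCNA and takes part in the repair and the active demethylation of DNA. Ing1 is a chromatin reader of methylated histone H3 that works with histone deacetylase complexes.

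Dividing cells express these genes in waves. In late G1, E2F factors switch on genes for origin licensing, the MCM helicase and nucleotide supply, and in G2 the MuvB complex with B-Myb and FOXM1 switches on genes for mitosis through the CHR element, together with the factor NF-Y at CCAAT boxes. Mature fat cells seldom divide, and in white fat division occurs mostly in progenitors, immune cells and vessel cells. In a bulk sample, fewer dividing cells and less of each RNA per cell cannot be told apart.

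All values are log2 signals scaled to a common 75th percentile per array, so a difference of 1 is a doubling, and a level of one gene cannot be set against that of another because probes differ. A gene was called when its adjusted p in limma was below 0.05, with Benjamini-Hochberg adjustment over all 31453 genes and unnamed probes tested, and errors are standard errors (SE) of the fit with 3 arrays per genotype. The Ing1 probe read 12.37 to 12.78 on the 6 arrays labelled as carrying Ing1 and 9.13 to 9.60 on the 6 labelled as lacking it. The Gadd45a probe went against the labels, at 10.05 to 10.62 on the 6 arrays labelled as lacking Gadd45a and 9.06 to 9.80 on the other 6. Where that probe lies relative to the deleted part is not known here, so the names Gadd45a-KO and DKO stand throughout for arrays labelled so. All 10 white adipocyte markers, among them Adipoq and Lep, passed the filter and were tested. The arrays had a median processed signal of 39.3 to 68.8, with 58.2% to 68.1% of spots above background, and each of the 3 slides held 1 array of every genotype under the same replicate number.

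Promoter sequences of members were examined because the members move together between arrays. RefSeq promoters (GRCm38.p6, 250 bases before to 50 bases after each start) were given for 38 of the 45 members and for 27025 genes in all. The sequences shown are those of Prc1 and Cdc20, the mitosis genes with the smallest p in DKO against Gadd45a-KO, and of Mcm3, the replication gene with the smallest p there. Capitals mark the CHR element (TTTGAA or TTCGAA), the CCAAT box (CCAAT) and the E2F site (TTCGCGC or TTGGCGC or TTCCCGC or TTGCCGC), each on either strand. Prc1 is given for the upstream one of its starts (chr7:80294201-80294500, plus strand), Cdc20 on the minus strand (chr4:118437294-118437593) and Mcm3 on the minus strand (chr1:20820263-20820562).
Prc1: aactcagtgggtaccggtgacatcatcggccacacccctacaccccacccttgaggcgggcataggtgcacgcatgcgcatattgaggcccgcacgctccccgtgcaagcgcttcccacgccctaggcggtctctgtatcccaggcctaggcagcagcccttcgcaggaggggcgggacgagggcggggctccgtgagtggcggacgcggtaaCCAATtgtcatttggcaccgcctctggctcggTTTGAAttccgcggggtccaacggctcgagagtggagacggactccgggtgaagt
Cdc20: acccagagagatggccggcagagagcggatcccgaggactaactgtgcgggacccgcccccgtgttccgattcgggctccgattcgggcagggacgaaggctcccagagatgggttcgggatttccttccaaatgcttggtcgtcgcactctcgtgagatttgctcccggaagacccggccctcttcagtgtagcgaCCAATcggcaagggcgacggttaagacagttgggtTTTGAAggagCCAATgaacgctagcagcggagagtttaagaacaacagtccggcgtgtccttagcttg
Mcm3: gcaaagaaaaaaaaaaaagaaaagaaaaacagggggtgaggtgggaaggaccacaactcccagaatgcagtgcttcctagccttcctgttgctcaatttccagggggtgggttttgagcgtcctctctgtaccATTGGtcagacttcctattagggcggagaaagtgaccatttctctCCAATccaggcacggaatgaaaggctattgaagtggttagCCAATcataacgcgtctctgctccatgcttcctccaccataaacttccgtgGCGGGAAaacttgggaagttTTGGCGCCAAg

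In Prc1 a CCAAT box stood at -37 and a CHR element at -5, counted from the first base of each match to the start. Cdc20 had CCAAT boxes at -53 and -8 around a CHR element at -18. Mcm3 had no CHR element, 3 CCAAT boxes at -117, -72 and -32, and 3 E2F sites after the start at 20, 40 and 43, where the last pair is 1 palindrome read on both strands. Among members with a promoter, a CHR element was found in 20 of 26 mitosis genes (76.9%), in 3 of 12 replication genes (25%) and in 21.7% of all genes. It was found in 12 of 17 mitosis genes (70.6%) called lower in DKO against Gadd45a-KO. Among replication genes called lower there, it was found in 2 of 5 (40%), Mcm2 and E2f8. An E2F site was found in 3 of 26 mitosis genes (11.5%), in 6 of 12 replication genes (50%) and in 10.9% of all genes. The CCAAT box was found in 76.9% of mitosis genes, 66.7% of replication genes and 41.1% of all genes. A match of letters is a description and not a binding site, and the window of Birc5 held none of the motifs.

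**Figure D1:**
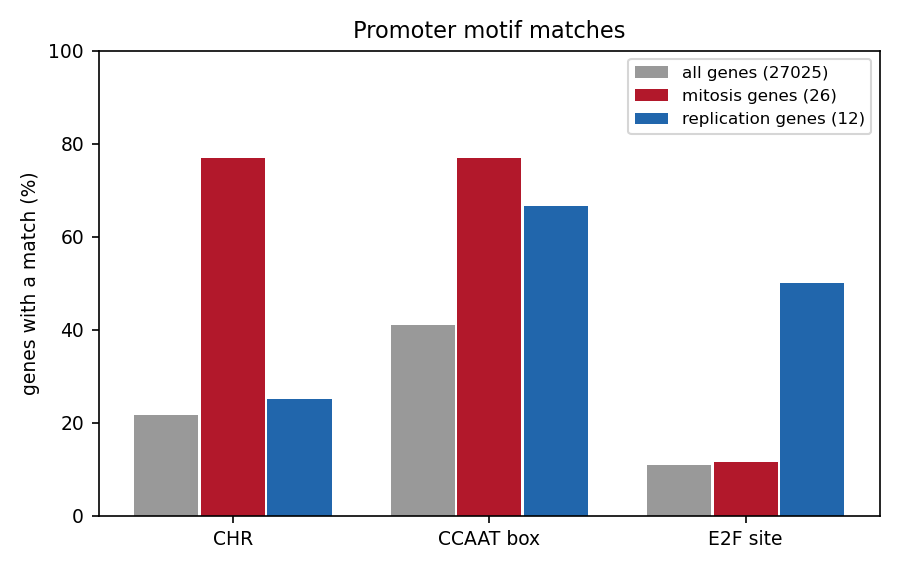
Share of genes (%) whose RefSeq promoter window holds each motif, for all genes in the promoter table (grey), mitosis genes (red) and replication genes (blue). The CHR bar is 76.9% for mitosis genes and 25% for replication genes, and the E2F bar is 11.5% and 50%.

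The level of the genes was read array by array. As the median over the 28 mitosis genes of the deviation from each gene's mean over 12 arrays, the 3 Gadd45a-KO arrays stood at 0.43, 0.48 and 0.35 and the 3 WT arrays at 0.30, -0.20 and 0.30. Ing1-KO arrays stood at -0.33, 0.23 and -0.01, and DKO arrays at -0.71, -0.94 and 0.04. The Gadd45a-KO arrays were thus the highest of the 12, DKO replicates 1 and 2 the lowest, and DKO replicate 3 lay among the WT and Ing1-KO arrays. The replication genes stood at 0.26, 0.27 and 0.34 in Gadd45a-KO, 0.19, -0.22 and 0.15 in WT, -0.15, 0.18 and -0.02 in Ing1-KO, and -0.34, -0.70 and 0.05 in DKO. The slides did not rank the genotypes alike, since in both lists Ing1-KO was above WT on slide 2 and DKO above Ing1-KO on slide 3. No member was called between WT and either single knockout or between Ing1-KO and DKO.

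**Figure D2:**
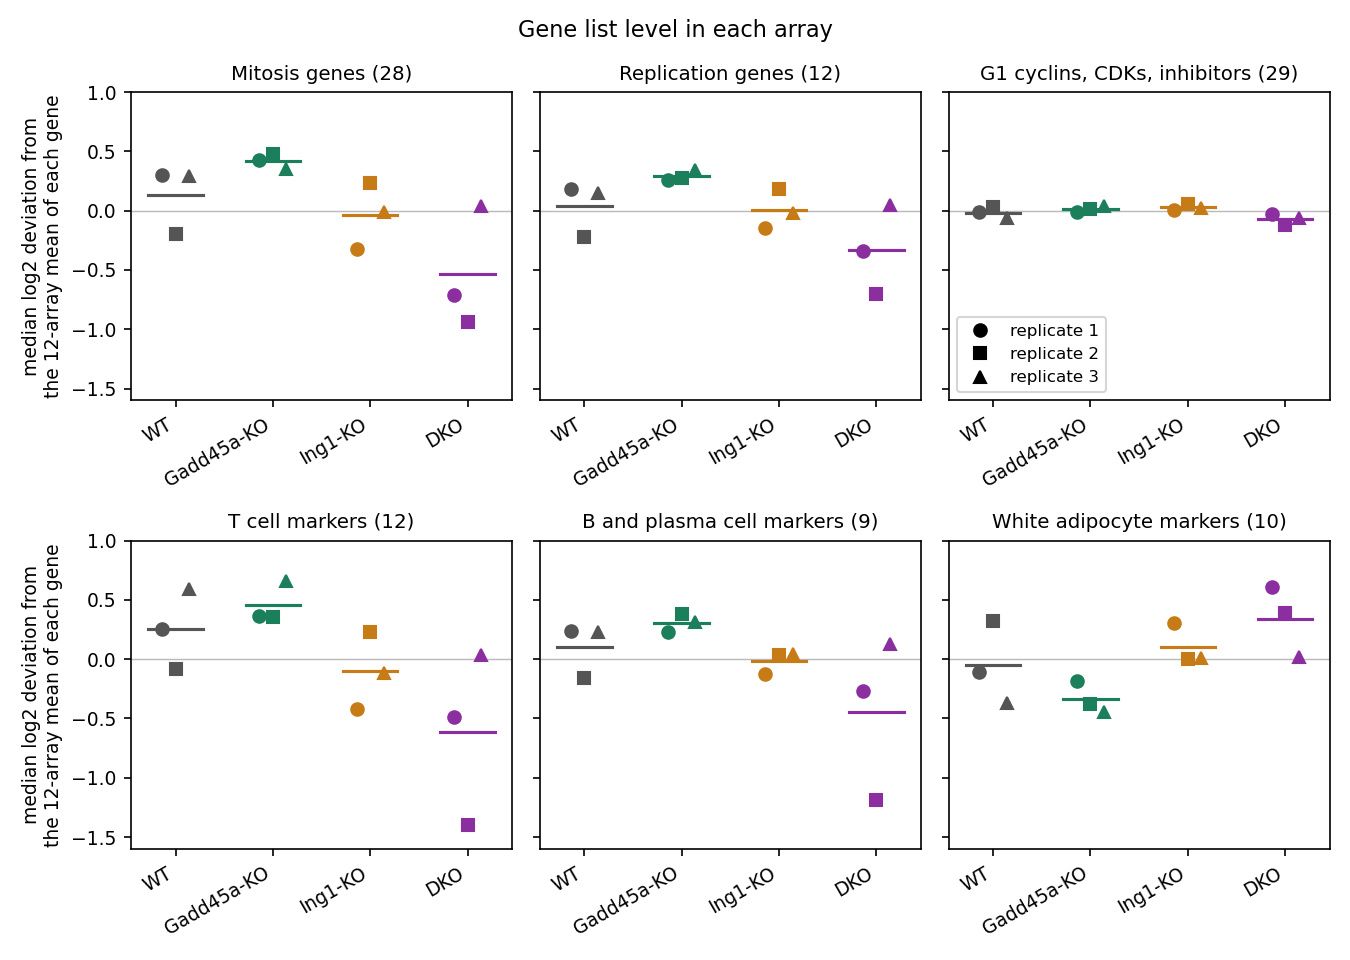
Median log2 deviation of each gene list from its genes' 12-array means, for every array by genotype (points, shaped by replicate; bars, means of 3 arrays). Mitosis and replication genes are lowest in DKO replicates 1 and 2. The G1 list, which also holds E2F, Lin and Myc genes, stays between -0.12 and 0.06. T cell, B cell and white adipocyte marker lists are shown on the same scale.

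The comparison of DKO with WT asks what loss of both regulators does to these genes. All 40 tested members had values below 0, and the median log2 fold change of the mitosis genes was -0.69, that of the replication genes -0.34 and that of all features -0.04. By the adjusted p 0 members were called, where 0.0795% of all features were called lower. At an unadjusted p below 0.05, 25 members lay lower, 20 of mitosis and 5 of replication, against 12.8% of all features. The groups did not overlap, with DKO lower, for 8 members, against 12.6% of features.

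Prc1, which bundles the microtubules of the spindle midzone, read 9.65, 9.14 and 9.34 in WT and 8.49, 8.11 and 8.98 in DKO. The DKO arrays lay below every WT array, and the log2 difference was -0.85 ± 0.22 (SE, limma adjusted p = 0.0793). Ube2c, the ubiquitin-conjugating enzyme of the anaphase-promoting complex, read 9.82, 9.63 and 9.65 in WT and 8.92, 8.67 and 9.39 in DKO. Its difference of -0.71 ± 0.18 (limma adjusted p = 0.0803) was again without overlap. Cdc20, the activator of that complex, read 10.16, 10.10 and 10.29 in WT and 9.24, 8.89 and 9.95 in DKO, a difference of -0.83 ± 0.22 (limma adjusted p = 0.0867) in which DKO replicate 3 lay closest to WT. Birc5 (survivin), of the chromosomal passenger complex, read 11.49, 10.96 and 11.40 in WT and 10.31, 10.04 and 11.05 in DKO, so that the groups overlapped through DKO replicate 3.

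Kif11, the motor that pushes spindle poles apart, read 7.01, 6.59 and 6.93 in WT and 5.86, 5.81 and 6.61 in DKO. Nuf2, a subunit of the outer kinetochore, read 6.28, 6.29 and 6.36 in WT and 5.08, 5.26 and 6.06 in DKO, below every WT array. Their differences were -0.75 ± 0.23 and -0.84 ± 0.27, and Kif11 overlapped where DKO replicate 3 just passed WT replicate 2.

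Among replication genes, Mcm2, a subunit of the helicase, read 9.96, 9.84 and 9.999 in WT and 9.06, 8.87 and 9.75 in DKO, with no overlap and a difference of -0.71 ± 0.22 (limma adjusted p = 0.104). Mcm3 read 11.996, 11.71 and 12.06 in WT and 11.32, 11.02 and 11.74 in DKO, where DKO replicate 3 lay above WT replicate 2. Rrm2, the regulated subunit of ribonucleotide reductase, read 10.701, 10.25 and 10.74 in WT and 9.85, 9.45 and 10.56 in DKO, an overlap of the same kind. E2f1, the activator of G1 to S genes, read 9.09, 8.80 and 8.91 in WT and 8.64, 8.59 and 8.67 in DKO, a small difference of -0.29 ± 0.12 without overlap.

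The 3 DKO pools differed among themselves. DKO replicate 2 lay below all 3 WT arrays for 28 of 28 mitosis genes and 12 of 12 replication genes, and DKO replicate 1 for 26 and 9. DKO replicate 3 did so for 6 and 2, and lay within the WT range for 21 and 9. Over all features, 27.2% to 33.7% of values in a DKO array lay below the WT range. On the 3 slides the mitosis median of DKO minus WT was -0.999, -0.77 and -0.23, and the replication median was -0.54, -0.47 and -0.10. Without DKO replicate 3 the members called in DKO against WT numbered 27, and without WT replicate 2 there was 1. With the slide as a block (the replicate block) there were still 0 members called, while the features called rose in number from 51 to 653.

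**Figure D3:**
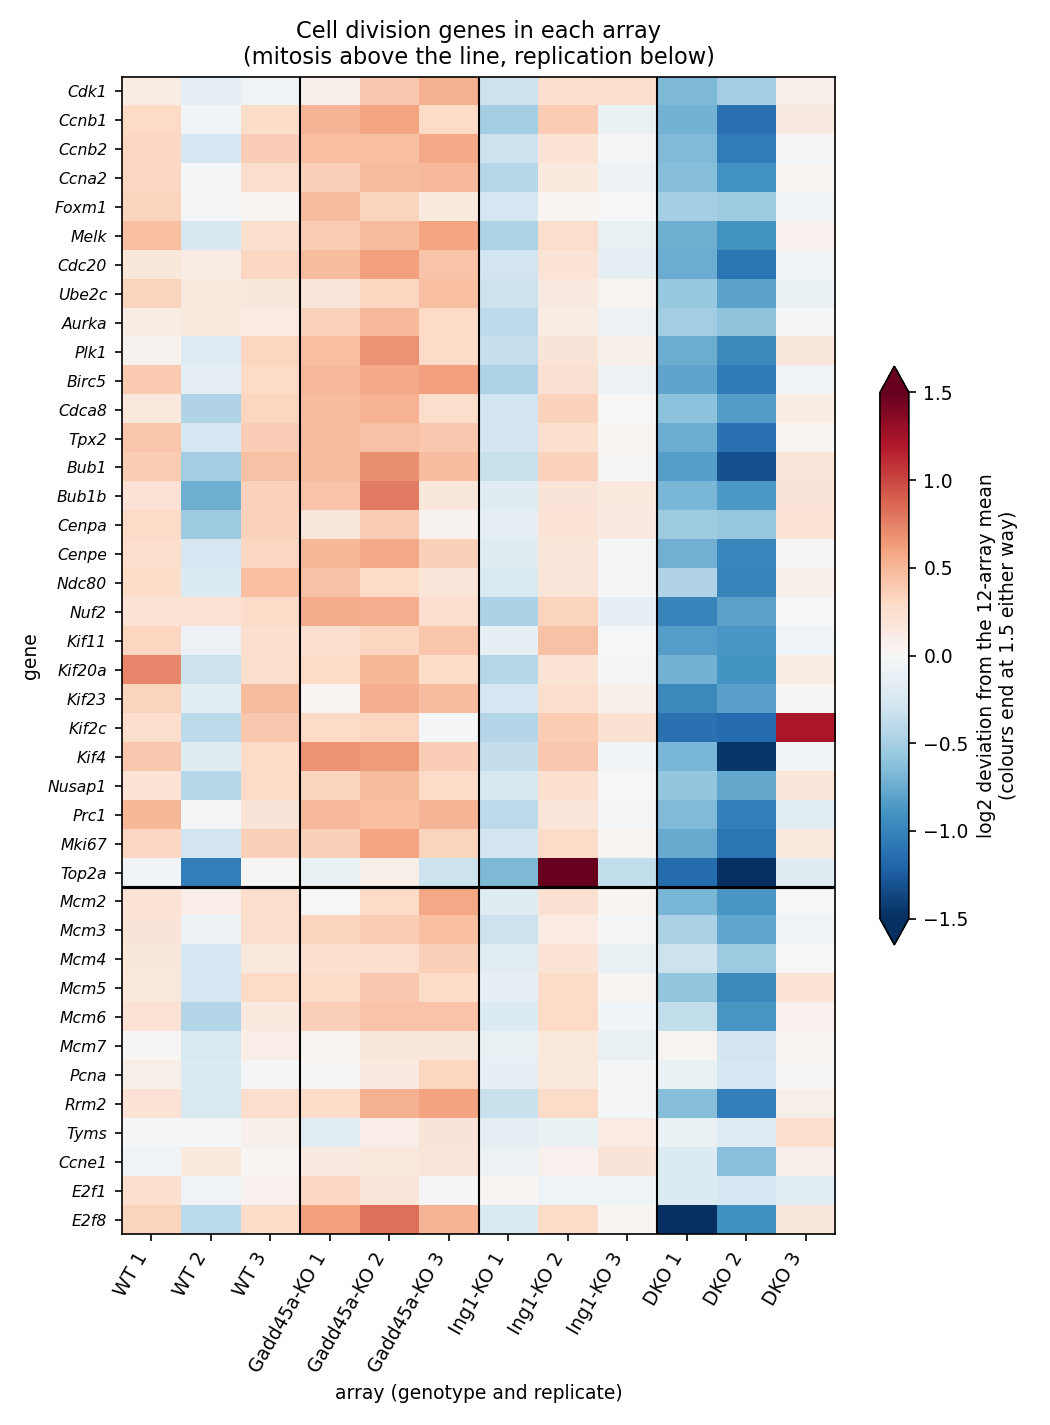
Log2 deviation of each of the 40 tested genes (rows, mitosis above the line and replication below) from its mean over the 12 arrays (columns, by genotype and replicate). Blue is lower and red is higher; DKO replicates 1 and 2 are blue in most rows, DKO replicate 3 is near its gene means, and Top2a in Ing1-KO replicate 2 and Kif2c in DKO replicate 3 stand out.

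DKO against Gadd45a-KO sets loss of Ing1 on a background that lacks Gadd45a by label. All 40 members lay below Gadd45a-KO on average. Of these, 26 were called lower and 0 higher, 20 of 28 mitosis genes and 6 of 12 replication genes. Over all features, 8.47% were called lower and 6.49% higher. From here on, a gene said to fall or rise is one that was called. By unadjusted p, 34 of the 40 lay lower, against 18.6% of features. Medians on the log2 scale were -0.94 (mitosis), -0.68 (replication) and -0.03 (all features). For 32 of the 40 the DKO arrays lay below every Gadd45a-KO array, which held for 20.8% of features. Gadd45a-KO arrays, the highest of the 12, are thus the base of this comparison, which shares the DKO arrays with that against WT.

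In the group of cyclins, Cdk1 and their regulators, 5 of 6 fell. Cyclin B2 (Ccnb2) fell by 1.07 ± 0.24 and cyclin B1 (Ccnb1) by 1.03 ± 0.29 on the log2 scale, both partners of Cdk1 at the entry to mitosis. Ccna2 (cyclin A2, active in S phase and G2) fell by 0.95 ± 0.22, the kinase gene Melk by 1.01 ± 0.27 and Foxm1, the G2 transcription factor, by 0.68 ± 0.18. Cdk1 read 7.40, 7.73 and 7.85 in Gadd45a-KO and 6.65, 6.81 and 7.40 in DKO, and with -0.71 ± 0.23 it was just outside the threshold (limma adjusted p = 0.0544).

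Both partners of the anaphase-promoting complex fell. Cdc20 read 10.46, 10.61 and 10.41 in Gadd45a-KO against 9.24, 8.89 and 9.95 in DKO, 2.20-fold lower at -1.13 ± 0.22 (limma adjusted p = 0.0143). Ube2c read 9.66, 9.81 and 9.94 against 8.92, 8.67 and 9.39, with -0.81 ± 0.18 (limma adjusted p = 0.0201). Neither gene's groups overlapped.

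All 5 tested members of the mitotic kinases and the passenger complex fell, by 0.76 to 1.19. Birc5 read 11.59, 11.67 and 11.72 in Gadd45a-KO and 10.31, 10.04 and 11.05 in DKO, a difference of -1.19 ± 0.25 (limma adjusted p = 0.0166). Its partner in that complex Cdca8 (borealin) fell by 0.87 ± 0.26. The centrosome kinase Aurka fell by 0.76 ± 0.17, its activator Tpx2 by 1.05 ± 0.28 and the kinase Plk1 by 0.98 ± 0.26.

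At the kinetochore 3 of 6 tested members fell. The motor Cenpe fell by 1.05 ± 0.23, Nuf2 by 1.05 ± 0.27 and the checkpoint kinase Bub1 by 1.20 ± 0.36. Bub1b, a checkpoint protein, had a value of -0.91 ± 0.32, Ndc80, the partner of Nuf2, -0.76 ± 0.26 and the centromere histone Cenpa -0.50 ± 0.25, and none of these was called.

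Of the kinesins and midzone proteins 4 of 7 fell. Prc1 had the smallest p of any member, with 9.64, 9.60 and 9.67 in Gadd45a-KO and 8.49, 8.11 and 8.98 in DKO, 2.16-fold lower at -1.11 ± 0.22 (limma adjusted p = 0.0139). The chromosome motor Kif4 fell by 1.29 ± 0.33, Kif11 by 0.91 ± 0.23 and Kif23, a motor of cytokinesis, by 0.94 ± 0.27. Kif20a (-0.85 ± 0.30), Nusap1 (-0.76 ± 0.25) and Kif2c (-0.55 ± 0.52) were not called. Kif2c, a microtubule depolymerase, read 4.73 and 4.69 in DKO replicates 1 and 2 but 7.07 in replicate 3, its highest value on any array, and its dimmer kept probe gave a difference of -1.39 ± 0.45.

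Mki67, the nuclear antigen used to stain cycling cells, read 11.81, 12.05 and 11.79 in Gadd45a-KO and 10.69, 10.35 and 11.61 in DKO, and fell by 1.00 ± 0.28 (limma adjusted p = 0.0376). Top2a, which untangles sister DNA, was not called, and its SE of 1.20 is the widest of the members. Its probe read 14.04 on Ing1-KO replicate 2 against 6.995 to 8.73 on the other 11 arrays. Without that array the difference between DKO and Gadd45a-KO was -0.88 ± 0.36 (limma adjusted p = 0.129).

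The MCM helicase unwinds DNA at the fork, and 4 of its 6 subunits fell. Mcm3 read 12.13, 12.18 and 12.25 in Gadd45a-KO and 11.32, 11.02 and 11.74 in DKO, 1.77-fold lower at -0.82 ± 0.18 (limma adjusted p = 0.0178). Mcm2 fell by 0.81 ± 0.22, Mcm6 by 0.79 ± 0.23 and Mcm4 by 0.58 ± 0.16. Mcm5 was at -0.77 ± 0.25 (limma adjusted p = 0.0556), a size like that of Mcm2. Mcm7 stood apart, with 12.14, 12.28 and 12.29 in Gadd45a-KO and 12.16, 11.84 and 12.15 in DKO, an overlap of groups and a difference of -0.19 ± 0.13.

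Among the other replication genes Rrm2 and E2f8 fell. E2f8, a repressor that closes the E2F wave, read 8.08, 8.28 and 7.96 in Gadd45a-KO and 5.96, 6.54 and 7.62 in DKO, the largest difference of any tested member at -1.40 ± 0.35 (limma adjusted p = 0.0267). Rrm2 read 10.76, 11.02 and 11.08 against 9.85, 9.45 and 10.56, and fell by 1.00 ± 0.26. The sliding clamp Pcna read 12.93, 13.05 and 13.23 against 12.81, 12.64 and 12.93, with a difference of -0.28 ± 0.13 that did not pass the test. Thymidylate synthase (Tyms) was at -0.05 ± 0.17, with values of 6.38, 6.63 and 6.73 against 6.44, 6.35 and 6.79. Cyclin E1 (Ccne1) was at -0.41 ± 0.16 and E2f1 at -0.37 ± 0.12, neither of them called. A dimmer kept probe of Ccne1 gave -0.97 ± 0.30 in the same comparison. Dimmer kept probes of genes that fell could give less. Ccnb1 had -0.54 ± 0.25 and -0.87 ± 0.48 on its dimmer probes, and Tpx2 had -0.46 ± 0.36. The probes agreed in sign there for all 10 members with several kept probes, with a median spread of 0.26.

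**Figure D4:**
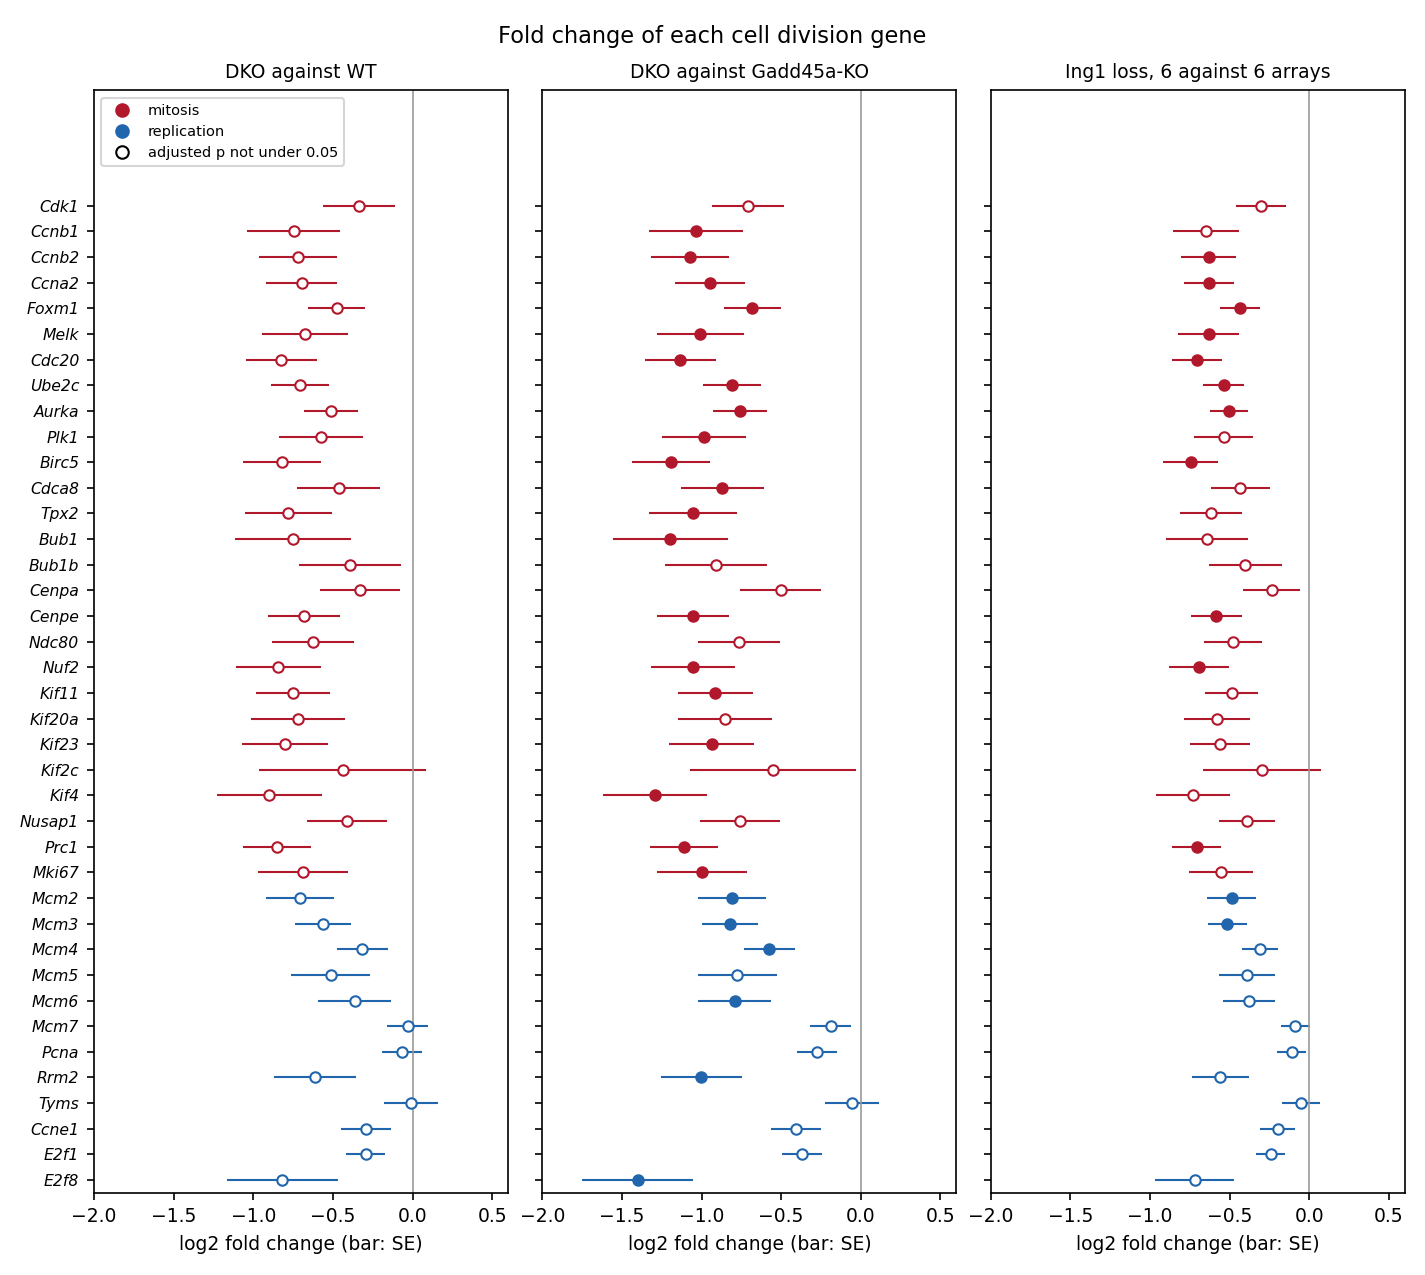
Log2 fold change with its SE for 39 tested genes (Top2a left out for its wide error) in DKO against WT, DKO against Gadd45a-KO, and the 6 arrays labelled as lacking Ing1 against the 6 carrying it. Filled points have an adjusted p below 0.05; 0 are filled in the first panel, 26 in the second and 13 in the third, all to the left of 0.

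The count of 26 depends on single arrays. It was 0 without Gadd45a-KO replicate 3 or without DKO replicate 2, 1 without DKO replicate 1, 2 without Gadd45a-KO replicate 2, 12 without Gadd45a-KO replicate 1, and 35 without DKO replicate 3. It was also 0 when the fit held only the 6 arrays compared, 6 without WT replicate 2 and DKO replicate 2, and 0 after dropping the 3 arrays with the most skeletal muscle signal, which are replicate 1 of the 3 knockout genotypes. Within slides the mitosis median was -1.11, -1.43 and -0.30, and the replication median -0.63, -0.98 and -0.32, so the direction was the same on all 3.

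Each single knockout was compared with WT. In Gadd45a-KO, 0 members were called (0% of features), although all 40 lay above WT on average, at medians of 0.28 (mitosis) and 0.23 (replication). By unadjusted p too, 0 members passed, against 2.35% of features. For 14 of the 40 the Gadd45a-KO arrays lay above every WT array, which held for 1739 of the 31453 features. The smallest p belonged to Mcm6, at 13.24, 13.32 and 13.32 against 13.10, 12.45 and 13.04 in WT, a difference of 0.43 ± 0.23. WT replicate 2 is the low value there, and without it the mitosis median was 0.14 and the replication median 0.13. In Ing1-KO against WT, 0 members were called, where 0.00318% of features were called lower, and at an unadjusted p below 0.05 there were 0 too, against 8.6% of features. Medians were -0.18 and -0.04, and the slides disagreed in sign, at -0.61, 0.45 and -0.32 for mitosis genes. Ing1-KO replicate 1 lay below the WT range for 20 of 28 mitosis genes, replicate 2 for 1 and replicate 3 for 7.

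DKO against Ing1-KO called 0 members (0% of features lower), with medians of -0.49 (mitosis) and -0.33 (replication) and 11 members lower at an unadjusted p below 0.05, against 2.08% of features. The slides disagreed in sign, at -0.35, -1.17 and 0.083 for mitosis genes and -0.16, -0.83 and 0.11 for replication genes. Kif11 had the smallest p, at 6.55, 7.12 and 6.67 in Ing1-KO and 5.86, 5.81 and 6.61 in DKO, an overlap through DKO replicate 3. The interaction, which tests whether the effect of Ing1 loss differs with the Gadd45a label, called 0 members and 0% of features. At an unadjusted p below 0.05, 19 members were negative in it, against 3.63% of features. Cenpe had the smallest p there, with -0.94 ± 0.32 (limma adjusted p = 0.728). An effect of Ing1 loss that differs between the Gadd45a states was therefore not shown for any member, and the median of -0.81 for mitosis genes is a description. On the 3 slides it was -0.44, -1.91 and -0.020, and without WT replicate 2 and DKO replicate 2 it was -0.45.

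The 6 arrays labelled as lacking Ing1 were then compared with the 6 carrying it, over both Gadd45a labels. For each gene this is the mean of 2 differences already given, Ing1-KO against WT and DKO against Gadd45a-KO. Their mitosis medians were -0.18 and -0.94, so the larger part of the values below comes from DKO against Gadd45a-KO. In this comparison 13 members fell and 0 rose, 11 of mitosis and 2 of replication, beside 9.09% of all features called lower and 6.93% called higher. Prc1 fell by 0.71 ± 0.15 (limma adjusted p = 0.0155), Cdc20 by 0.70 ± 0.16 and Birc5 by 0.74 ± 0.17. Aurka, Ube2c, Ccna2, Ccnb2, Nuf2, Cenpe, Foxm1 and Melk fell too, by 0.43 to 0.69. Of the replication genes, Mcm3 fell by 0.51 ± 0.12 (limma adjusted p = 0.0222) and Mcm2 by 0.49 ± 0.15 (limma adjusted p = 0.0494). Ube2c alone among the 40 had all 6 Ing1-lacking arrays, at 8.67 to 9.62, below all 6 others, at 9.63 to 9.94, against 4.91% of features.

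This count also moved with single arrays. It was 2 without Ing1-KO replicate 1, 4 to 8 without any one of the 3 Gadd45a-KO arrays, 6 and 5 without WT replicate 1 or 3, and 7 without Ing1-KO replicate 3. It was 6 without DKO replicate 1 and 7 without DKO replicate 2, but 30 without WT replicate 2 and 31 without DKO replicate 3. With normexp background correction it was 22, and after dropping the 3 arrays with the most skeletal muscle signal it was 0. The slide medians for mitosis genes were -0.85, -0.52 and -0.31, all negative.

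Replication and mitosis genes were set side by side in each array as the mitosis median minus the replication median. The difference was -0.37, -0.24 and -0.01 in the 3 DKO arrays, 0.12, 0.02 and 0.15 in WT, 0.17, 0.21 and 0.01 in Gadd45a-KO, and -0.18, 0.05 and 0.01 in Ing1-KO. The pooled SD between arrays of a genotype was 0.126. DKO replicates 1 and 2 had the lowest values of the 12, whereas DKO replicate 3 was within the range of Ing1-KO. In DKO against Gadd45a-KO the mitosis median minus the replication median was -0.27, but -0.057 with normexp background correction. The smaller replication median comes with a wide spread within that list, from -1.40 for E2f8 to -0.05 for Tyms, while the mitosis list ran from -1.29 for Kif4 to -0.50 for Cenpa. No test was made of this difference between lists. The lists were also read at unlike signal levels. Mean levels in WT ran from 5.87 (Kif4) to 11.57 (Mki67) for mitosis genes and from 6.54 (Tyms) to 12.86 (Mcm6) for replication genes. Whether signal level has a part in the difference was not tested.

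Further genes of the same phases, chosen by name, were read in the same fit. In DKO against Gadd45a-KO, 12 of 44 further replication genes fell (27.3%, against 8.47% of all features), with a median of -0.48, and 1 rose (against 6.49% of features). The flap endonuclease Fen1 fell by 0.82 ± 0.14 (limma adjusted p = 0.0099), Uhrf1, which helps to copy DNA methylation marks at the fork, by 0.90 ± 0.21 and the checkpoint adaptor Clspn by 1.16 ± 0.28. The GINS subunit Gins4 went the other way, with 0.42. Of 59 further mitosis genes, 24 fell (40.7%) and 0 rose, with a median of -0.79. Among them Incenp, the scaffold of the passenger complex, fell by 0.80 ± 0.15, Cdca5 (sororin, of cohesion) by 1.10 ± 0.23 and Cdca3, which triggers mitotic entry, by 0.94 ± 0.21.

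A mixed list of 29 cell cycle control genes was read as well. It held G1 cyclins, CDKs, their inhibitors and pocket proteins, and also further E2F factors with their partners Tfdp1 and Tfdp2. Myc and Lin subunits of the MuvB complex were in it too. Of the 29, 4 fell and 1 rose in DKO against Gadd45a-KO (13.8% lower, against 8.47% of all features). Their log2 differences had a median of 0.01 and reached 0.78 at the upper end, with Cdkn2a the lowest. Cyclin D1 (Ccnd1) fell by 0.64 ± 0.12 (limma adjusted p = 0.0126), the inhibitor locus Cdkn2a by 1.60 ± 0.30 and the activator E2f2 by 0.75 ± 0.17. The median of this list, which mixes activators, repressors and inhibitors, ranged only from -0.12 to 0.06 between the 12 arrays. In DKO against WT 0 of these further genes were called in any of the 3 lists.

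Markers of other cell types were read in the same arrays. Their counts in DKO against Gadd45a-KO stand beside 8.47% of all features called lower and 6.49% called higher. Lists of 6 to 12 markers are too short to be compared closely with these shares. In DKO against Gadd45a-KO, 8 of 12 T cell markers fell with a median of -1.01, and Cd3e of the T cell receptor complex fell by 1.01 ± 0.24. The summed T cell signal was 27778 to 67751 in DKO, 86931 to 110328 in Gadd45a-KO, 71329 to 97026 in WT and 52039 to 80115 in Ing1-KO. The T cell medians by array were -0.49, -1.40 and 0.03 in DKO. Of 9 B and plasma cell markers 2 fell, with summed signals of 33791 to 78861 in DKO and 85692 to 102223 in Gadd45a-KO. The same sums were 72845 to 91619 in WT and 68118 to 75791 in Ing1-KO. Neutrophil markers (7 of 8 fell) summed to 1697 to 2582 in DKO and 5233 to 45770 in Gadd45a-KO. In WT they summed to 1676 to 4520 and in Ing1-KO to 1905 to 3483, so Gadd45a-KO was the group apart. Macrophage markers (4 of 9 tested fell) summed to 27124 to 32555 in DKO and 46872 to 54455 in Gadd45a-KO. Their sums were 34374 to 43936 in WT and 31334 to 35874 in Ing1-KO. In DKO replicates 1, 2 and 3 the neutrophil median stood at -1.53, -0.78 and -0.98 and the macrophage median at -0.33, -0.10 and -0.18. There the B and plasma cell median stood at -0.26, -1.19 and 0.13, and the white adipocyte median at 0.61, 0.39 and 0.02. Of 8 fat progenitor markers 0 were called, with a median of 0.12, and of 6 endothelial markers 1 rose, with a median of 0.44. White adipocyte markers rose for 5 of 10, with sums of 1248866 to 1778720 in DKO and 979795 to 1159406 in Gadd45a-KO. Sums for WT were 1054373 to 1633345 and for Ing1-KO 1213205 to 1366732.

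Skeletal muscle markers were high on replicate 1 of the 3 knockout genotypes, up to a sum of 16893 in Ing1-KO. Of the testis germ cell markers, Ddx4 and Dazl were not above background on enough arrays to be tested, and the 6 that were summed to 289 to 910 over all arrays. Of 6 epididymis markers 1 was tested. What part these cell types have in the values of the cell division genes was not tested.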

How the data were processed

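Total RNA of gonadal white fat was read with Cy3 on 12 one-colour arrays, 3 for each genotype and each a pool of 3 animals. Per the file headers, the deposited intensity values are processed signals of Feature Extraction 10.7.3.1, already background-subtracted by the authors' scanner software and not scaled between arrays. The authors' deposited table of log2 values, used as an alternative, comes from limma 3.26.9 per the submitters' processing notes, and its scaling between arrays is not given in the sources used here. Of 55681 probes, 94 were dropped for marked spots, 29150 have a RefSeq accession, and 27509 of these matched a gene symbol. Per probe, log2 processed signals were averaged over spots and shifted to a common 75th percentile. Probes well above background on at least 3 arrays were kept, with the brightest per gene, leaving 31453 features, of which 15954 are named genes.

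One linear model with 4 genotype means was fitted to the 12 arrays with limma 3.58.1 in R 4.3.3 (8 residual degrees of freedom, intensity trend and robust moderation), tested two-sided and adjusted by Benjamini-Hochberg. The fit was tested on simulated data in which 200 features changed 2-fold. It recovered 16% of them in the interaction, 36.5% in Gadd45a-KO against WT and 38.5% in DKO against Ing1-KO. In the other comparisons it recovered 45% to 68%. The simulated noise was independent between features and between arrays, whereas deviations of the real arrays were correlated, as given below. Recovery in the real data may therefore differ. A count of 0 called therefore does not show that a gene is unchanged. The number of arrays limits the precision, and an exact permutation test of 3 against 3 cannot go below a p of 0.1. No array pair held the same values. Members and lists were chosen with earlier results of these data known, so no list has a test. Full statistics are given for members past the threshold and up to 6 mitosis and 4 replication members with the smallest p, and for at most 3 genes of a further list. Replicates of one number share a slide. Deviations of 9 of 18 same-numbered pairs correlated above 0.1, up to 0.42, against 8 of 36 pairs with different numbers, up to 0.31. The main fit nonetheless did not pair arrays by number, and the fit with the slide as a block is given beside it. Slide, scan date and replicate number coincide on all 12 arrays, so a shift shared by the arrays of a slide cannot be assigned to any of these. Results are given with the slide as a block and within slides. Other alternatives were quantile and median scaling, normexp, filters, probe averaging, array row, and left-out arrays. Motifs were counted in RefSeq promoters of GRCm38.p6, while the array grid names mm9.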

Additional observations from a re-analysis of the deposited data

How the results depend on the processing

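With 3 pooled arrays per genotype, most counts of called features and genes depend on single arrays, while medians below 0 in the DKO comparisons kept their sign in every left-out-array fit. With normexp the median of all features in the interaction moved from 0.01 to 0.12. The cause of the changes below was not tested. In some of the alternatives fewer arrays or features entered the fit. Of 1556 values for single named members under the alternatives, 1199 kept their direction and side of the threshold. A call was lost in 338 and gained in 18, and 1 value reversed. The reversed value was Top2a in Ing1-KO against WT. It was 1.81 with all arrays and -0.17 to 2.87 with 1 array left out, the low value without Ing1-KO replicate 2.

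Features called in Ing1-KO against WT numbered 1, but 5 with quantile scaling, 4 with median centring or probe averaging, 2 with normexp or the authors' values, and 15 without WT replicate 2 and DKO replicate 2. In DKO against WT the 51 features became 202 with normexp, 25 with no filter, 4 with plain moderation, 653 with the replicate block, 3 with the array row as a block and 14 without those 2 arrays. They became 1 without the 3 muscle-high arrays and 1 with only the arrays compared. In DKO against Gadd45a-KO the 4704 became 3062 with no filter, 2425 without the 2 arrays, 1 without the muscle-high arrays and 502 with only the arrays compared. In DKO against Ing1-KO the 1 became 0 under both of the last settings. The 5038 of the 6 against 6 arrays became 1 without the muscle-high arrays.

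Members called in DKO against Gadd45a-KO numbered 26, but 6 without the 2 arrays and 0 without the muscle-high arrays or with only the arrays compared. In the 6 against 6 arrays the 13 became 22 with normexp and 0 without the muscle-high arrays. The replicate block gave 29 and 16, and changed no other count of members by over 1.5 times. The mitosis minus replication difference became -0.057 in DKO against Gadd45a-KO, -0.0067 in DKO against Ing1-KO and 0.063 in the interaction with normexp, and -0.23 in DKO against WT with the authors' values. Without the 2 arrays the interaction medians were -0.45 (mitosis) and -0.32 (replication).

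Within slides, mitosis and replication medians that moved by over 1 SD between arrays were, for Gadd45a-KO against WT on slide 2, 0.71 (mitosis). For Ing1-KO against WT they were -0.61 and -0.30 on slide 1 and 0.45 and 0.38 on slide 2, and for DKO against WT -0.23 and -0.10 on slide 3. For DKO against Gadd45a-KO they were -1.43 and -0.98 on slide 2 and -0.30 and -0.32 on slide 3, and for DKO against Ing1-KO -1.17 and -0.83 on slide 2 and 0.083 and 0.11 on slide 3. In the interaction they were -0.44 and -0.30, -1.91 and -1.27, and -0.020 and -0.14 on slides 1, 2 and 3.

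With each array left out in turn, features called ranged from 1 to 16 in Ing1-KO against WT, 0 to 1 in Gadd45a-KO against WT, 1 to 3307 in DKO against WT, 539 to 7065 in DKO against Gadd45a-KO, 0 to 3 in DKO against Ing1-KO and 1901 to 7087 in the 6 against 6 arrays. Members called ranged from 0 to 27 in DKO against WT, 0 to 35 in DKO against Gadd45a-KO and 2 to 31 in the 6 against 6 arrays. The mitosis median of DKO against Gadd45a-KO ranged from -1.29 to -0.75. The mitosis minus replication difference ranged from -0.48 to -0.25 in DKO against WT, -0.43 to -0.20 in DKO against Gadd45a-KO, -0.31 to -0.072 in DKO against Ing1-KO and -0.37 to -0.17 in the interaction.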
